A study of Mus musculus with 6 samples.

Results

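A set of 66 transcripts was higher after triptonide than in every library of control or triptolide-treated GC2 cells. The members were chosen by their measured levels among the 65189 rows of the deposited transcript table that carry a mouse Ensembl transcript ID. A row was taken where both triptonide libraries had at least 1 FPKM and at least 2 times the highest of the 4 control and triptolide values, and where the control mean was under 200 FPKM. FPKM is the number of fragments per kilobase of transcript, scaled to the mapped fragments of the library. The members are 0.101% of the annotated rows and 0.499% of the 13234 annotated rows with at least 1 FPKM in both triptonide libraries. The limit on the control mean removed 0 further rows. The levels after triptonide relative to both other groups are therefore a description of what the choice selected and not a finding.

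All libraries came from GC2 (GC2-spd), a mouse line that the labels call a spermatocyte line, and no genotype other than the line is labelled. The 3 groups were triptonide (2 libraries), triptolide (2 libraries, spelled Tiptolide in the sample labels) and control (2 libraries). One treatment text serves all samples. It gives a 24 h exposure to 0.1 µM triptolide after 12 h of culture, and no dose or time for triptonide, so matched doses of the compounds cannot be assumed. The control vehicle is not given, and the labels leave unsaid if both libraries of a group were separate cultures. The p-values therefore reflect the spread of these libraries alone, which may be technical. Testis is named in the design text of the series, whereas the labels of every sample name the cell line.

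Triptolide and triptonide are diterpenoid epoxides of the medicinal vine Tripterygium wilfordii, and triptonide carries a ketone where triptolide carries a hydroxyl group. Triptolide binds XPB, a helicase of the transcription factor TFIIH, and blocks the start of RNA polymerase II transcription. Both compounds have been studied for their effects on male fertility. One gene usually gives several transcripts that share exons and differ in start site, splicing or end, and short-read quantification has to divide shared fragments among them.

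The deposited file does not pair transcripts with genes. None of the members could be matched to a gene symbol in the name tables used here, where 0 IDs of the file were found. Members are therefore named by their Ensembl transcript ID, with no gene name, role, promoter sequence or coordinates, and markers of the cell line could not be checked. In bulk RNA, a change in the number of cells that carry a transcript and a change per cell cannot be told apart. The absolute depth is unknown. Relative depths read from steps among low FPKM values were 0.763 and 0.737 for triptonide, 0.599 and 0.674 for triptolide, and 0.818 and 1 for control (relative to control replicate 2). By this estimate the triptolide libraries were the shallowest. It is uncertain, since 10 of 15 pairs of libraries were clear, and neither triptolide library was clear against control replicate 1. More transcripts were above 0 in the triptolide libraries (41088 and 41680) and in the triptonide libraries (40956 and 41054) than in the control libraries (36592 and 37997).

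The members were mostly of low abundance. Their median level was 3.30 and 3.02 FPKM in the triptonide libraries, against 0.321 and 0.242 FPKM in the triptolide libraries and 0.209 and 0.125 FPKM in the control libraries. After triptonide 21 members had a mean of 1 to under 2 FPKM, 21 of 2 to under 5 FPKM, 11 of 5 to under 10 FPKM, 9 of 10 to under 20 FPKM and 4 of 20 FPKM or more. Summed over the members, the level was 599 and 528 FPKM after triptonide, 61.0 and 62.6 FPKM after triptolide, and 60.9 and 68.4 FPKM in control. The triptonide libraries were close to each other for most members. The ratio of the higher to the lower of them had a median of 1.14, it was under 1.2 for 40 members, and replicate 1 was the higher for 31 members and replicate 2 for 35.

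**Figure D1:**
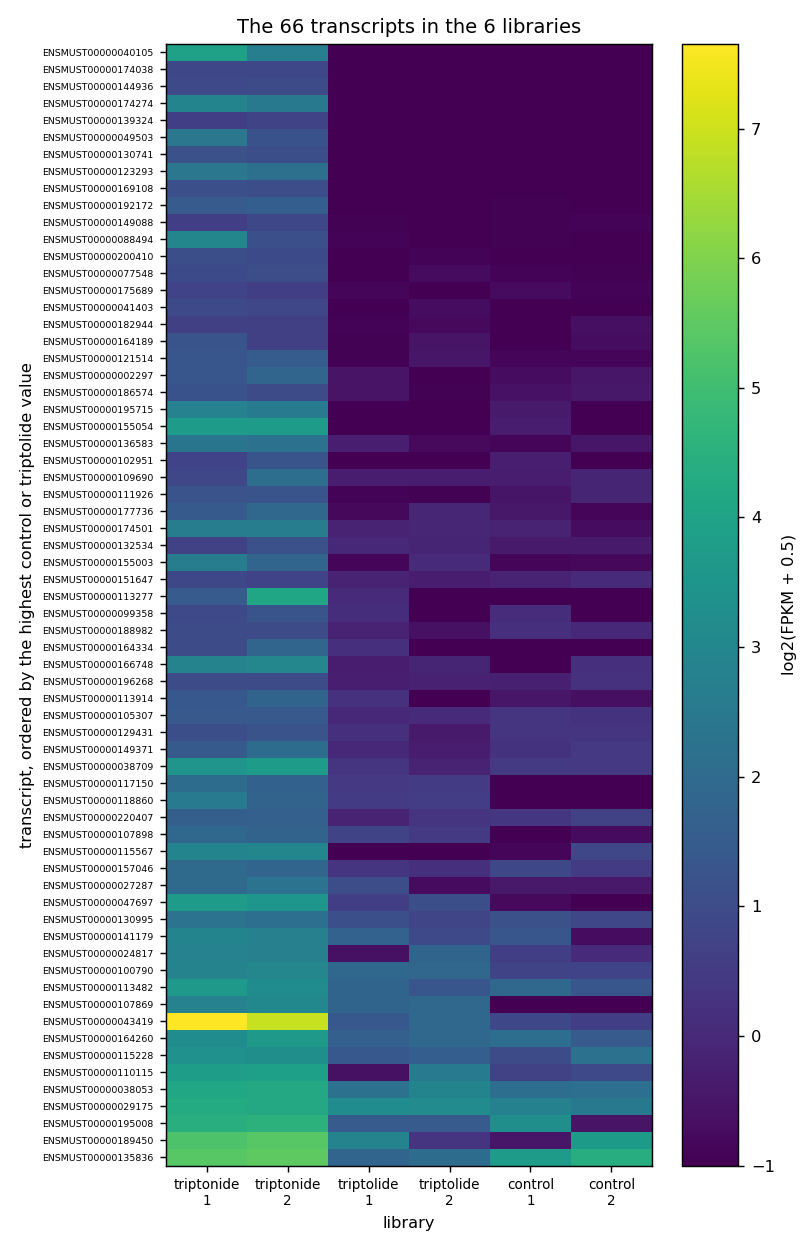
Level of the 66 members in each library as log2(FPKM + 0.5), with 1 row per transcript, ordered from top to bottom by the highest of its 4 control and triptolide values, and 1 column per library. The 8 members at the top were listed at 0 in all triptolide and control libraries, and the brightest row is ENSMUST00000043419, at 201 and 122 FPKM after triptonide.

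In the other 4 libraries the members ranged from not detected to well expressed. Of the 66, 8 were listed at 0 in all 4 libraries, 6 had a highest value above 0 and under 0.1 FPKM, 16 one of 0.1 to under 0.5 FPKM, 15 one of 0.5 to under 1 FPKM, and 21 one of 1 FPKM or more. The highest of the 4 values lay in a triptolide library for 28 members and in a control library for 30. Where that value was above 0, the lower triptonide value was a median of 3.01 times as high. This ratio was 2 to under 2.5 for 21 members, 2.5 to under 5 for 13, 5 to under 10 for 9 and 10 or more for 15.

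Rows on either side of the 2-fold limit had like ratios of the lower triptonide value to the highest other value, though their levels differed. Just inside lay ENSMUST00000107869 with a ratio of 2.03, ENSMUST00000135836 with 2.05 and ENSMUST00000029175 with 2.07. Just outside lay ENSMUST00000209079 with 1.99, ENSMUST00000022030 with 1.96 and ENSMUST00000139454 with 1.94. A limit of 1.5 times would give 160 transcripts and a limit of 3 times would give 37.

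**Figure D2:**
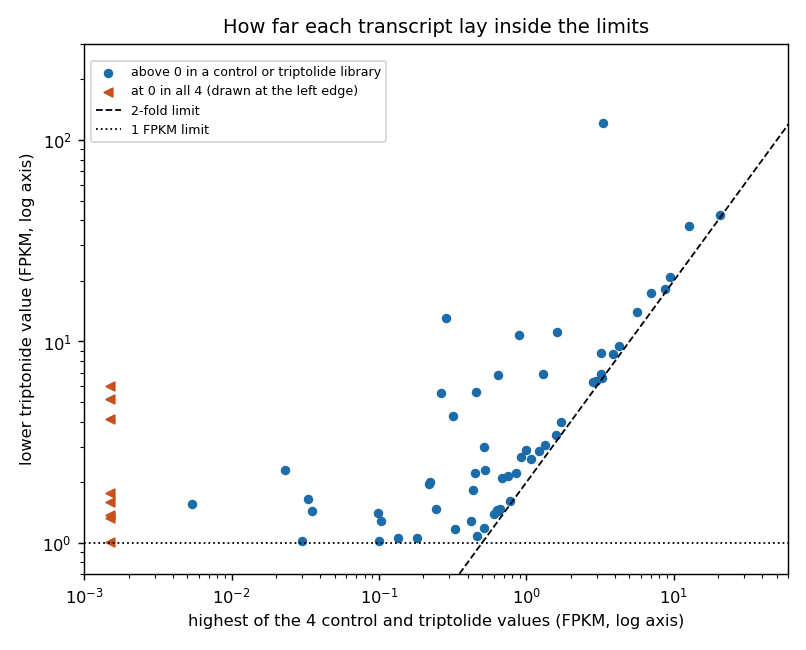
Lower of the 2 triptonide values of each member (vertical, FPKM) against the highest of its 4 control and triptolide values (horizontal, FPKM), both on log axes, with the 2-fold and 1 FPKM limits of the rule as lines. The 21 members with a ratio of 2 to under 2.5 lie close to the dashed line, the 8 members listed at 0 elsewhere are drawn at the left edge, and the point far above the line at the right is ENSMUST00000043419.

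The members listed at 0 in both other groups were low after triptonide as well, with 1 exception above 10 FPKM in 1 library. ENSMUST00000040105 had 15.0 and 6.01 FPKM in the triptonide libraries and was listed at 0 in the triptolide and control libraries. ENSMUST00000174274 had 7.04 and 5.21 FPKM after triptonide, and ENSMUST00000123293 had 4.95 and 4.11 FPKM. These 3 were above 4 FPKM in both triptonide libraries. ENSMUST00000049503 had 4.91 and 1.78 FPKM, ENSMUST00000130741 had 1.72 and 1.59 FPKM, and the other 3 had between 1.01 and 1.49 FPKM. A listed 0 may be an estimate that failed, so no fold change is given for these members.

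Among members above 0 in another library, the largest ratios belonged mostly to transcripts close to 0 outside triptonide. ENSMUST00000169108 had 1.64 and 1.55 FPKM after triptonide, against 0.00068 and 0.0037 FPKM after triptolide and 0.0054 and 0.0025 FPKM in control. ENSMUST00000192172 had 2.31 and 2.47 FPKM after triptonide, was listed at 0 in both triptolide libraries and had 0.0231 FPKM and 0 in control. ENSMUST00000088494 had 7.35 and 1.65 FPKM after triptonide, against 0.0330 and 0.0113 FPKM after triptolide and 0.0208 and 0.0080 FPKM in control. For the last, the triptonide libraries differed 4.45-fold, so its size after triptonide is uncertain although both values lay far above the other groups. ENSMUST00000200410, ENSMUST00000149088, ENSMUST00000195715, ENSMUST00000077548 and ENSMUST00000136583 had lower triptonide values between 13.4 and 41.0 times their highest other value. Large ratios were also those of ENSMUST00000155054 (45.6) and ENSMUST00000043419 (36.6), both described below. ENSMUST00000043419 was not close to 0 elsewhere, with 1.04 to 3.33 FPKM in the triptolide and control libraries.

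The most abundant member stood apart from the rest. ENSMUST00000043419 had 201 and 122 FPKM in the triptonide libraries, against 2.13 and 3.33 FPKM in the triptolide libraries and 1.34 and 1.04 FPKM in the control libraries. Its lower triptonide value was 36.6 times the highest other value. The next, ENSMUST00000135836, had 42.3 and 45.2 FPKM after triptonide, 3.06 and 3.62 FPKM after triptolide, and 13.2 and 20.7 FPKM in control. Here the triptolide libraries lay below the control libraries, so the order was triptonide, control, triptolide.

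Several abundant members were uneven within the control or triptolide group. ENSMUST00000189450 had 37.5 and 42.3 FPKM after triptonide, against 6.82 and 0.774 FPKM after triptolide and 0.218 and 12.6 FPKM in control. ENSMUST00000195008 had 20.9 and 23.1 FPKM after triptonide, 2.31 and 2.29 FPKM after triptolide, and 9.49 and 0.178 FPKM in control. ENSMUST00000110115 had 14.0 and 14.3 FPKM after triptonide, 0.157 and 5.59 FPKM after triptolide, and 1.11 and 1.37 FPKM in control. In each of these the triptonide pair was within 1.13-fold of each other while the control or the triptolide pair was far apart. The size of the difference from such a group depended on the library taken.

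In other members of the top 10 the libraries of a group lay closer, though not equally close in every group. ENSMUST00000038053 had 17.5 and 18.2 FPKM after triptonide, 4.22 and 6.99 FPKM after triptolide, and 3.82 and 3.97 FPKM in control. ENSMUST00000038709 had 10.8 and 13.2 FPKM after triptonide, 0.738 and 0.390 FPKM after triptolide, and 0.897 and 0.852 FPKM in control. ENSMUST00000155054 had 13.2 and 13.1 FPKM after triptonide, was listed at 0 in both triptolide libraries, and had 0.287 FPKM and 0 in control. In these 3 the triptonide libraries lay close together. Every library of the other groups lay below them by the rule, so that is no finding.

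**Figure D3:**
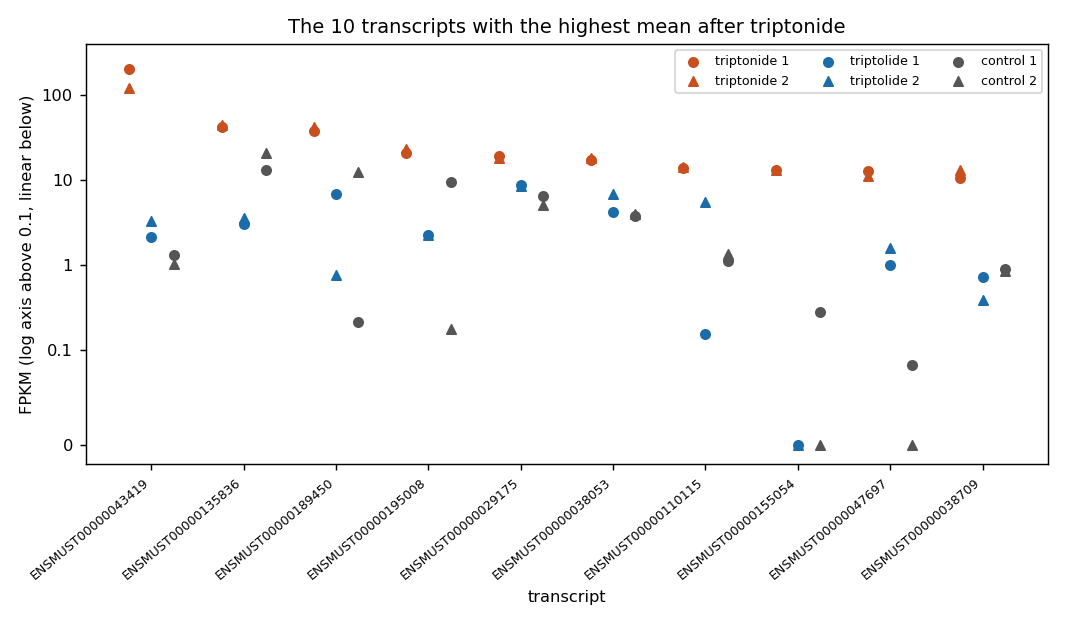
Level in FPKM of the 10 members with the highest mean after triptonide in each of the 6 libraries, with 1 point per library (circle for replicate 1, triangle for replicate 2) and a vertical axis that is logarithmic above 0.1 and linear below. ENSMUST00000043419 lies at 201 and 122 FPKM after triptonide, and ENSMUST00000189450, ENSMUST00000195008 and ENSMUST00000110115 show libraries of 1 group far apart.

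The triptonide libraries themselves differed more than 2-fold for 6 members. The widest gap was that of ENSMUST00000113277, with 2.30 and 16.4 FPKM after triptonide, against 0.525 FPKM and 0 after triptolide and 0 in both control libraries. ENSMUST00000109690 had 1.28 and 3.86 FPKM after triptonide, with 0.306 and 0.282 FPKM after triptolide and 0.289 and 0.422 FPKM in control. At the other end, ENSMUST00000155054, ENSMUST00000182944, ENSMUST00000105307, ENSMUST00000174038 and ENSMUST00000111926 differed by 1.01 to 1.02-fold between the triptonide libraries.

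Group means were compared in 1 limma fit over the 23407 transcripts that reached 0.5 FPKM in 2 or more of the 6 libraries. Fitted fold changes are differences of log2(FPKM + 0.5), a scale that makes the change of low transcripts look smaller. Every member passed this filter through its triptonide values alone, and 26 of the 66 would have passed on the other 4 libraries. For triptonide against control 49 members were called higher at an adjusted p under 0.05, where 6.27% of all tested transcripts were. For triptonide against triptolide 54 were called higher, where 12.1% of all were. The rule used both contrasts, so nothing is read from these counts. They also fell when a library was left out, to 13 without control replicate 1 for the first contrast and to 7 without triptonide replicate 1 for the second.

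Triptolide and control differed for a few members. The rule did not choose members by this difference, but it capped the levels of both groups, and 30 members had none of the 4 triptolide and control libraries at 0.5 FPKM or more. By limma 7 of 66 members rose after triptolide, where 12.4% of all tested transcripts rose, and 1 fell, where 23.1% of all fell. These 8 were all among the 26 members that would have passed the filter on the other 4 libraries. Both triptolide libraries lay above both control libraries for 10 members, against 24.1% of all tested transcripts, and below for 12 members, against 46.1% of all. Because the members' levels were capped and 8 of them were at 0 in all 4 libraries, their shares are not comparable with those of all transcripts, and nothing is read from the contrast.

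The members that rose after triptolide are given next. By the rule a member that was higher after triptolide than in control had to lie between control and triptonide, so that order is no finding. ENSMUST00000107869 had 6.61 and 7.70 FPKM after triptonide, 2.95 and 3.26 FPKM after triptolide, and was listed at 0 in both control libraries. Its log2 fold change for triptolide over control was 2.85 ± 0.15 (SE, limma adjusted p = 0.000949). ENSMUST00000100790 had 6.87 and 7.62 FPKM after triptonide, 3.20 and 3.15 FPKM after triptolide, and 1.21 and 1.19 FPKM in control, a log2 fold change of 1.11 ± 0.12 for triptolide over control (SE, limma adjusted p = 0.0034). In both members the triptolide libraries lay close to each other and above both control libraries.

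A rise after triptolide was called for 3 more members. ENSMUST00000047697 had 12.9 and 11.2 FPKM after triptonide, 1.01 and 1.61 FPKM after triptolide, and 0.085 FPKM and 0 in control, with a log2 fold change of 1.72 ± 0.23 for triptolide over control (SE, limma adjusted p = 0.00638). ENSMUST00000107898 had 3.17 and 2.85 FPKM after triptonide, 1.22 and 0.894 FPKM after triptolide, and 0.0076 and 0.0974 FPKM in control (log2 fold change 1.49 ± 0.20, SE, limma adjusted p = 0.00644). ENSMUST00000117150 had 3.71 and 2.68 FPKM after triptonide, 0.849 and 0.922 FPKM after triptolide, and 0 in both control libraries (log2 fold change 1.47 ± 0.20, SE, limma adjusted p = 0.00675). Values of 0 in both libraries of a group add no spread to the fit, so the p-values of members listed at 0 in both control libraries may be too small, and their fitted fold changes depend on the added 0.5 FPKM.

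Rises of ENSMUST00000118860 and ENSMUST00000029175 were less secure. ENSMUST00000118860 had 5.59 and 2.89 FPKM after triptonide, 0.943 and 0.992 FPKM after triptolide, and 0 in both control libraries (limma adjusted p = 0.0208), a call lost without any 1 of the triptolide or control libraries (adjusted p = 0.0812 to 0.0878). ENSMUST00000029175 had 19.4 and 18.1 FPKM after triptonide, 8.76 and 8.59 FPKM after triptolide, and 6.54 and 5.18 FPKM in control. Its log2 fold change for triptolide over control was 0.54 ± 0.13 (SE, limma adjusted p = 0.0312), and this call was lost without either triptonide or either triptolide library and without control replicate 2 (adjusted p = 0.0619 to 0.112). The single fall was that of ENSMUST00000135836, given above, with a log2 fold change of -2.15 ± 0.23 for triptolide over control (SE, limma adjusted p = 0.00358).

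For many of the 58 members that were not called, a difference between triptolide and control was not resolved. The 95% interval of the log2 fold change reached beyond 1 unit for 28 of them. Narrow intervals say little here, since the added 0.5 FPKM holds members with low values in all 4 libraries near 0. ENSMUST00000043419 was instead among the members whose interval reached beyond 1 unit. Its log2 fold change for triptolide over control was 0.92 ± 0.31 (SE), with a 95% interval of 0.096 to 1.74. This interval is not adjusted for the number of tests, and the member did not pass the test (limma adjusted p = 0.083). Both its triptolide libraries lay above both control libraries.

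**Figure D4:**
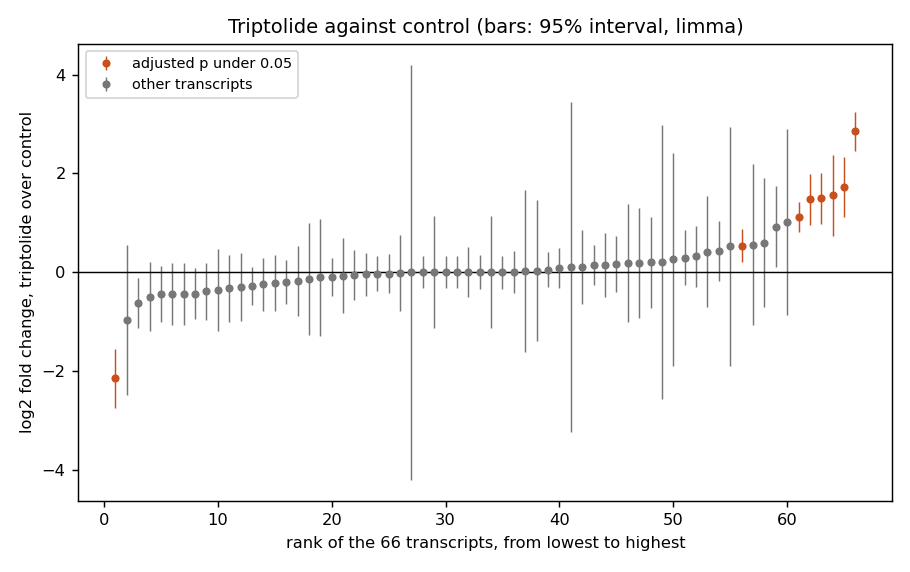
Log2 fold change of triptolide over control for the 66 members (vertical), ranked from lowest to highest (horizontal), with points at the limma estimate and bars for its 95% interval. The 8 coloured members passed an adjusted p of 0.05, 7 above and 1 below 0, and the widest bars belong to members whose libraries of 1 group were far apart.

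The rule did not use the rows beside a member in the table, but these rows come from the same libraries and the same quantification. Where rows share fragments, a high value of 1 row can go with lower values beside it. The neighbours are therefore not independent of the choice of members, and the 13234 rows used for comparison below were not chosen by a 2-fold limit. How much this adds to the differences was not tested. Locus numbers of the rows without an Ensembl ID climb along the table and step down at 2 places, so neighbouring rows may come from the same or adjoining loci, but the file does not say which rows share a gene. For each member the FPKM of the 5 rows before and the 5 rows after it were added up. This choice was made after the data were seen. These 10 rows together had at least 1 FPKM in both control libraries for all 66 members, as they did for 96.4% of the 13234 annotated rows with at least 1 FPKM in both triptonide libraries.

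The summed neighbours were more often lower than higher after triptonide. On the log2(FPKM + 0.5) scale the sum was lower after triptonide than in control for 52 members, or 78.8%, and higher for 14, and it was lower for 7012 of the 13234 rows. The median difference was -0.29 for the members and -0.02 over the 13234 rows. It was lower by at least 1 log2 unit for 10 members, or 15.2%, against 0.929% of the 13234 rows, and higher by as much for 0 members, against 2.08% of those rows. The sum met the 2-fold rule for 0 of the 66 members and for 0.0378% of the 13234 rows, too few to tell the members apart by this count. When the member was added to its 10 neighbours, the total met the 2-fold rule for 0 members, and for 18 it was higher in both triptonide libraries than in the other 4. Neither count was made over the 13234 rows, so nothing is read from these totals.

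Totals of a member with its 10 neighbours varied from member to member. ENSMUST00000135836 was among the 18 with a higher total in both triptonide libraries. Its total was 66.1 and 71.5 FPKM after triptonide, 29.7 and 29.7 FPKM after triptolide, and 41.6 and 48.5 FPKM in control. The most abundant member, ENSMUST00000043419, was not among these 18 and is given as an example, which need not be typical. Together with its 10 neighbours it summed to 377 and 430 FPKM after triptonide, against 548 and 534 FPKM after triptolide and 384 and 367 FPKM in control, so the total after triptonide was near that of control while the member itself averaged 161 FPKM after triptonide and 1.19 FPKM in control. A row at a distance of 2, ENSMUST00000108613, had 96.3 and 167 FPKM after triptonide, 122 and 152 FPKM after triptolide, and 373 and 356 FPKM in control. Some of its neighbours were also higher after triptonide than in control, or differed widely between libraries of 1 group. ENSMUST00000108611, also at a distance of 2, had 21.0 and 114 FPKM after triptonide, 2.21 and 31.5 FPKM after triptolide, and 0.450 and 0.418 FPKM in control. ENSMUST00000108612 had 24.3 and 18.1 FPKM after triptonide, 409 and 33.4 FPKM after triptolide, and 5.54 and 5.44 FPKM in control. ENSMUST00000070996 had 30.2 and 0.065 FPKM after triptonide, 0.0219 and 310 FPKM after triptolide, and 0.370 and 0.270 FPKM in control. These neighbours, and those named below, were picked after their values were seen.

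Few transcripts did the reverse of the members, and some of them lay beside one. In all, 21 rows of the series had at least 1 FPKM in all 4 triptolide and control libraries and at least 2 times the higher triptonide value. Of these 21 rows, 6 lay within 5 rows of a member, or 28.6%. The share of other rows that lie this near a member was not counted, so nothing is read from the 28.6%. Of the 66 members, 7 had such a reverse row nearby, or 10.6%. Among the 13234 annotated rows with at least 1 FPKM in both triptonide libraries the share with such a row nearby was 0.446%. All 6 rows near a member were within 2 rows of it.

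By the limits used, 1 row of each pair had to be higher after triptonide and the other lower, so their opposite direction is no finding. The sums of the pairs differed in how near they came to the other groups. ENSMUST00000106115, the row next to ENSMUST00000038709, was listed at 0 in both triptonide libraries and had 7.57 and 8.02 FPKM after triptolide and 14.3 and 13.4 FPKM in control. The pair summed to 10.8 and 13.2 FPKM after triptonide, 8.31 and 8.41 FPKM after triptolide, and 15.2 and 14.2 FPKM in control, so the sum after triptonide lay between those of the other groups. ENSMUST00000078988, at a distance of 2 rows from ENSMUST00000038053, had 0.824 and 1.03 FPKM after triptonide, 15.5 and 15.1 FPKM after triptolide, and 21.5 and 23.8 FPKM in control. That pair summed to 18.3 and 19.2 FPKM after triptonide, 19.8 and 22.1 FPKM after triptolide, and 25.3 and 27.8 FPKM in control, and was lowest after triptonide.

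Sums near those of both other groups, near control alone and above both were seen in the next pairs. ENSMUST00000036649, at a distance of 2 rows from ENSMUST00000107898, had 1.48 and 1.78 FPKM after triptonide, 4.16 and 3.79 FPKM after triptolide, and 5.11 and 3.86 FPKM in control. The pair summed to 4.65 and 4.63 FPKM after triptonide, 5.38 and 4.69 FPKM after triptolide, and 5.12 and 3.96 FPKM in control. ENSMUST00000046157, next to ENSMUST00000195008, had 6.36 and 3.17 FPKM after triptonide, 16.7 and 17.4 FPKM after triptolide, and 19.1 and 30.3 FPKM in control. The pair summed to 27.3 and 26.2 FPKM after triptonide, 19.0 and 19.7 FPKM after triptolide, and 28.6 and 30.4 FPKM in control. ENSMUST00000195715 and ENSMUST00000192172 were the 2 members that lay within 5 rows of each other, and both were near ENSMUST00000054387, which had 0.207 and 0.891 FPKM after triptonide, 4.46 and 4.83 FPKM after triptolide, and 4.64 and 4.86 FPKM in control. These 3 rows summed to 9.16 and 8.92 FPKM after triptonide, 4.46 and 4.83 FPKM after triptolide, and 4.93 and 4.86 FPKM in control, so here the total was higher after triptonide. The sum of ENSMUST00000063710 and ENSMUST00000149088 was lowest after triptonide, at 1.02 and 1.35 FPKM, against 2.29 and 7.87 FPKM after triptolide and 4.35 and 5.04 FPKM in control.

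**Figure D5:**
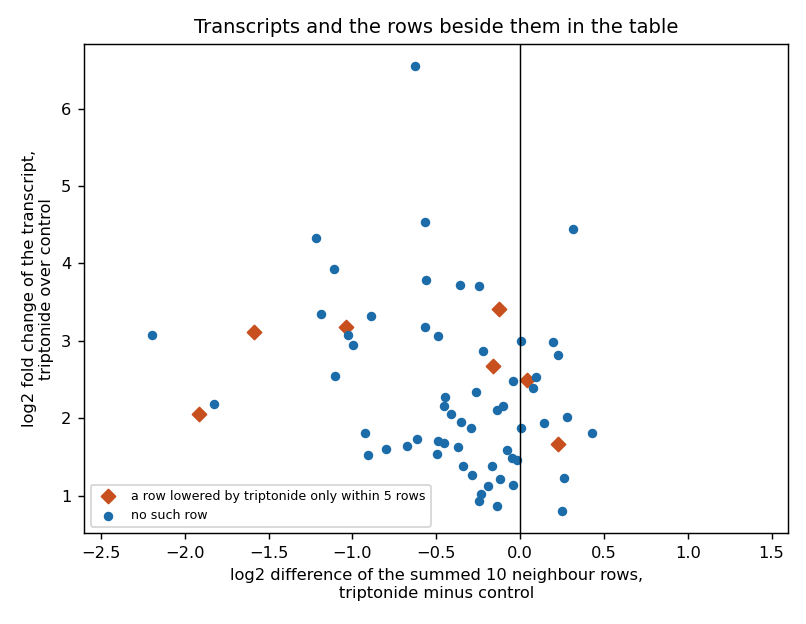
Log2 fold change of each of the 66 members for triptonide over control (vertical) against the log2 difference, triptonide minus control, of the summed FPKM of its 10 neighbour rows (horizontal). The 52 points left of the line have neighbours that were lower after triptonide than in control, and the 7 diamonds mark members with a row lowered by triptonide only within 5 rows.

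Set beside the same rule with the compounds exchanged, the triptonide set was the smaller. The rule found 66 transcripts for triptonide, 198 for triptolide and, with control in that place, 237. These counts used the deposited values. Median-of-ratios factors were 0.880 and 0.893 for the triptolide libraries and 1.08 to 1.13 for the others. With this scaling the triptonide set held 49 transcripts, and the other sets were not counted again. In the triptonide set 12.1% were listed at 0 in all 4 other libraries, against 0.505% in the triptolide set, and the ratio to the highest other value was 10 or more for 25.9% and 6.60% of those above 0 elsewhere. In the control set these shares were 2.53% and 7.79%. The lower value in the raised group had a median of 2.46 FPKM in the triptonide set and 1.96 FPKM in the triptolide set. The summed neighbours met the 2-fold rule themselves for 0 of 66 members in the triptonide set and for 22 of 198, or 11.1%, in the triptolide set. A row with the reverse pattern lay within 5 rows for 10.6% of the triptonide set and for 13.1% of the triptolide set. Such rows numbered 21 for triptonide and 636 for triptolide. The shares over all annotated rows were counted for the triptonide pattern alone, so these neighbour percentages do not compare the sets. The sets were chosen on the same libraries, and no test of the difference between them was made.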

How the data were processed

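The authors deposited 1 table of FPKM values per transcript and library, with 65535 rows in 6 libraries. Per the submitters' processing notes, STAR and StringTie were used (versions not given in the sources used here). The genome build in these notes is hg19, which is human, and the IDs are mouse, so no coordinates are printed. Of the rows, 65189 carry Ensembl IDs and 346 others do not, and 15228 were listed at 0 throughout. That row count fills a sheet of an older spreadsheet format, and further rows may exist that are not analysed here. The fit used limma 3.58.1 (R 4.3.3) with an intensity trend on log2(FPKM + 0.5) of all 6 libraries, with Benjamini-Hochberg adjustment over 23407 transcripts. The fit has 3 residual and 1.68 prior degrees of freedom. The procedure was tested on simulated data, but no outcome of that test is given here, so nothing is read from it. With 2 libraries against 2 an exact two-sided permutation test cannot go below p = 0.333, so none was used. Same-numbered libraries did not deviate together over the tested transcripts (correlations of -0.0367 to 0.0144), and the main fit did not pair them. These correlations cannot settle whether the numbers mark shared cultures or batches, and the labels do not say. The members and lists were chosen with earlier results of these data known. The members named were the highest after triptonide, those with the largest ratios, those listed at 0 elsewhere, those next to the 2-fold limit, those with the smallest p for triptolide against control, and those whose triptonide libraries differed most or least. The planned gene lists and cell markers need gene names and were not run. Other settings were 2 pseudocounts, 2 filters, 2 scalings, a replicate block, other limits of the rule, and each library left out.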

Additional observations from a re-analysis of the deposited data

Results flagged for a closer look

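The rule was limited to rows with an Ensembl transcript ID. Among the 346 rows without one, 3 meet its numeric part, a signal in data that the comparisons did not use. At 1 locus, XLOC.1101.4 had 2.43 and 2.23 FPKM after triptonide and XLOC.1101.3 had 2.26 and 2.17 FPKM, against 0.261 and 0.842 FPKM and 0.134 and 0.121 FPKM after triptolide, and both were listed at 0 in the control libraries. At another, XLOC.6183.2 had 2.02 and 2.10 FPKM after triptonide, against 0.411 and 0.628 FPKM after triptolide and 0.0105 and 0.756 FPKM in control.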

How the results depend on the processing

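The set depends on the limits of its rule. It held 160 transcripts at 1.5 times and 37 at 3 times the highest other value, and 112 with at least 0.5 FPKM and 40 with at least 2 FPKM after triptonide. Median-of-ratios scaling gave 49 transcripts and quantile normalization 48, of which 48 each were among the 66. Without any 1 library the rule gave 113 to 361 transcripts, since each library left out removes a condition. With 1 library left out, members called by limma numbered 13 to 40 for triptonide against control, 7 to 41 for triptonide against triptolide, and 7 to 10 for triptolide against control, against 49, 54 and 8 with all libraries. A residual degree of freedom is lost each time, so the counts need not single out a library. With the replicate number as a block, 32 members were called for triptonide against control, 39 for triptonide against triptolide and 8 for triptolide against control. The other settings moved no count of called members by more than 1.5 times. ENSMUST00000118860 missed the threshold with a pseudocount of 1 (limma adjusted p = 0.0503) and ENSMUST00000029175 without a filter (limma adjusted p = 0.0523) for triptolide against control. Members with a reverse row nearby numbered 7 with 2 or 10 rows on each side, 8 with median-of-ratios scaling, and 7 to 11 without any 1 library, 11 without triptonide replicate 1; these settings were chosen after seeing the data. Depth differed by 1.67-fold between libraries on the relative scale, an uncertain estimate by which the triptolide libraries were the shallowest. A value of 0 or close to it in these or the other libraries does not show that a transcript was absent.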
